A study of Rattus norvegicus with 12 samples.

Results

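The NRF2 pathway was examined through 9 genes, the transcription factor gene Nfe2l2 (NRF2), its inhibitor Keap1 and the target genes Hmox1, Nqo1, Gclc, Gclm, Txnrd1, Srxn1 and Slc7a11, among 22442 gene records measured by RNA-seq. A member was the record whose gene name was one of these symbols, and where 2 records carried the name, as for Gclm, the record of higher mean level. All 9 members were found. The gene symbols set the membership, and they were picked with earlier results of these data known. The cells were fibroblast-like synoviocytes (FLS), the adherent lining cells of the joint, cultured to the third passage from the synovium of male Sprague Dawley rats with adjuvant arthritis (AA), which had been induced by an injection of complete Freund's adjuvant. The FCA group was incubated with DMEM medium alone. The other groups received taurochenodeoxycholic acid (TCDCA), a taurine-conjugated bile acid, for 12 h, at 0.1 µM in AT01 (1e-07 M), 1 µM in AT1 (1e-06 M) and 10 µM in AT10 (1e-05 M). Each group had 3 libraries, so that 9 TCDCA libraries faced 3 FCA libraries. All 4 groups came from arthritic rats, with no healthy FLS among them, and the age of the rats is not stated in the sources used here. The study describes the replicate numbers as sets of repeated experiments, without saying whether a set had its own culture, rats or day. The p-values below therefore measure only the spread between these libraries, which may be technical.

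NRF2 is a transcription factor that switches on genes of antioxidant defence and detoxification through antioxidant response elements in their control regions. In resting cells KEAP1 binds NRF2 and hands it to a ubiquitin ligase built on CUL3 for degradation, and oxidants or electrophiles that modify KEAP1 let NRF2 accumulate. NRF2 activity is thus set largely at the protein level, and the RNA of its targets is the usual transcript readout of it. In inflamed synovium the pathway is known as a brake on oxidative stress.

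Levels were in FPKM, a fragment count scaled by transcript length and by the mapped reads of the library, held to 2 decimals. No read counts were used here, so the depth behind a single value is unknown and no counting interval is given. Differences were tested on log2(FPKM + 1) with limma over the 11611 records that averaged 1 FPKM or more in the 12 libraries. A gene was called where its p, adjusted by the method of Benjamini and Hochberg across these records, was under 0.05. On this scale the change of a gene of low level is understated. For the members and the Gclm records a two-sided exact permutation test was also run, and its p is given where a result turns on it. The exact test cannot go below p = 0.1 with 3 libraries against 3 or below 0.00455 with 9 against 3. The libraries were alike in scale, with size factors from 0.989 to 1.03 and a median difference over all records between -0.0085 and 0.016 in the comparisons with FCA. The mean distance of a library from the median library was widest in AT01 replicate 1 (0.238 on the log2 scale), FCA replicate 2 (0.230) and AT01 replicate 3 (0.224), and 0.172 to 0.210 in the other 9. Fibroblast markers summed to between 5630 and 7066 FPKM, with all 8 found at a mean of at least 1 FPKM. Of 7 leukocyte markers found, only Cd14 and Cd68 reached that mean, with Cd3e listed at 0 in every library. Over the 12 libraries Csf1r averaged 0.157 FPKM, Cd79a 0.017, Adgre1 0.0067 and Aif1 0.0033 FPKM. The leukocyte sum ranged over 6.49 to 21.98 FPKM in FCA, 6.12 to 20.15 in AT01, 5.77 to 17.6 in AT1 and 18.38 to 21.42 in AT10. Cd14 alone ranged from 3.6 to 18.8 FPKM over the 12 libraries and Cd68 from 1.66 to 2.91, so the sum mostly followed Cd14. The leukocyte sum is therefore not read as a measure of leukocyte content. Its low ends were in the libraries of low Cd14, namely FCA replicate 3, AT1 replicate 1 and AT01 replicate 1. The 4 endothelial markers found summed to between 0.07 and 0.21 FPKM. The leukocyte markers Ptprc, Cd163 and C1qa and the endothelial marker Pecam1 matched no record, so their levels are unknown here. In such bulk samples, fewer cells of a type and less RNA per cell cannot be told apart.

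The control regions of the members are shown first, since the pathway acts through a sequence motif. RefSeq promoters of build GRCr8, from 250 bases before to 50 bases after each start site, matched 8 of the 9 members, all but Hmox1, with 9 promoters. The core of the antioxidant response element, TGACNNNGC (any base at N), was searched on both strands. It was found in 3 of the 9 member promoters, those of Nfe2l2, Gclm and 1 of 2 for Txnrd1, and in 4038 of all 33469 promoters of the same length (12.1%). The windows around the 3 matches are printed because they show which members carry the core near their start site. They are written 5′ to 3′ along the coding strand, with the 9 bases of the core in capitals.
Nfe2l2, chr3:81028950-81028970, minus strand: actagccatTGACGCCGCctc
Gclm, chr2:213031933-213032001, plus strand: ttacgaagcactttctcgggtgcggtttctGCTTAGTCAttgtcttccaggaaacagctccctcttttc
Txnrd1, chr7:22755944-22756012, minus strand: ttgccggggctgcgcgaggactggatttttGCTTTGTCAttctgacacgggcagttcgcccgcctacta
The core of Nfe2l2 began at base 39 after the start site and lay on the coding strand. The cores of Gclm and Txnrd1 began at bases -172 and -78 and lay on the other strand, where they read TGACTAAGC and TGACAAAGC. These matches are a description of letters in a short window and no measure of binding. Sequence farther from the start sites was not searched, so a member without a match here may still carry the core elsewhere.

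No member was called in any comparison. Of the 8 members tested, 0 passed in AT10 against FCA (0.172% of all records were called), in AT1 against FCA (0.0947%) and in AT01 against FCA (0.0947%). The count was also 0 between doses, with 0.258% of records called for AT10 against AT1, 0.0689% for AT10 against AT01 and 0.129% for AT1 against AT01, in the 9 TCDCA libraries against FCA (0.0258%) and over the 4 groups together by an F test (0.0431%). At an unadjusted limma p under 0.05, the only member was Gclm in TCDCA against FCA, where 12% of all records passed. None of the 8 passed it in AT10, AT1 or AT01 against FCA, where 11.9%, 11% and 6.6% of records did, between doses (6.46%, 4.97% and 3.43%, in the order above) or over the 4 groups (8.57%). Slc7a11 lay under 1 FPKM and was not tested.

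The members differed widely in level. In FCA, Hmox1 averaged 157 FPKM and Nqo1 155 FPKM, above 98.7% and 98.6% of all records. Nfe2l2 averaged 33.4 FPKM and Txnrd1 32.9 FPKM, Keap1 14.6, Gclc 8.95, Srxn1 6.72 and Gclm 3.41 FPKM, while Slc7a11 averaged 0.080 FPKM. In this order Hmox1 and Nqo1 did not differ beyond their spread over libraries (SD 32.9 and 50.0 FPKM), nor did Nfe2l2 and Txnrd1 (SD 5.04 and 3.96 FPKM).

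**Figure D1:**
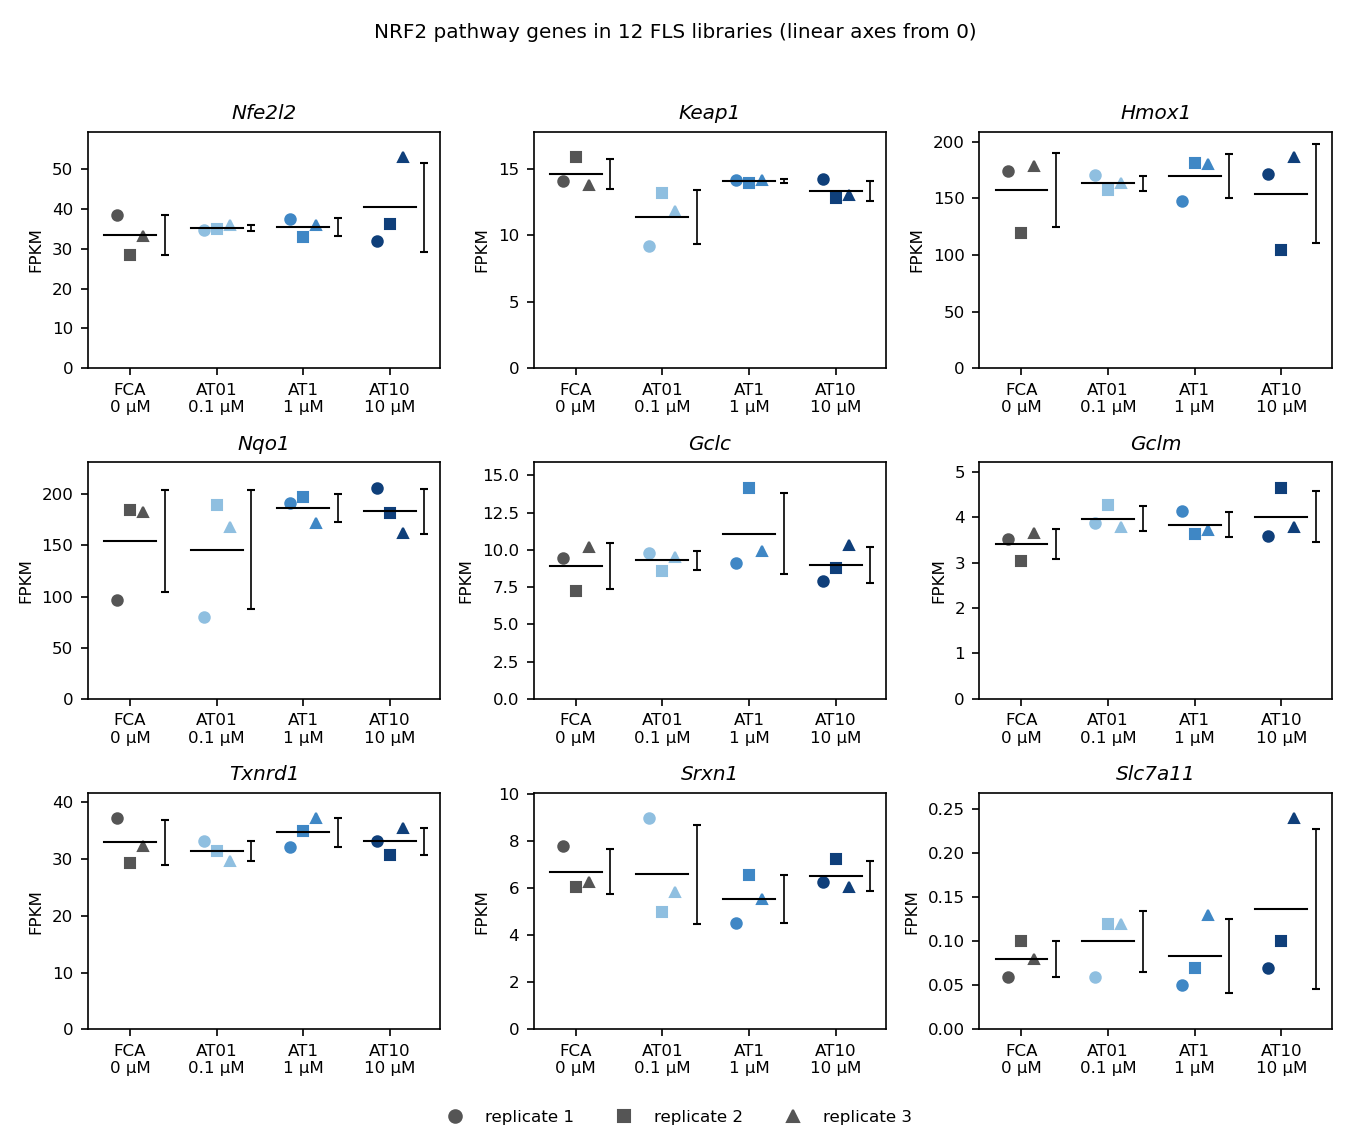
FPKM (linear vertical axes from 0) of the 9 members in the 12 libraries, by group and TCDCA dose, with circles, squares and triangles for replicates 1, 2 and 3, a bar at the group mean and a whisker of 1 SD. The groups overlap for nearly all members, and single libraries stand apart, as AT10 replicate 3 at 53.0 FPKM for Nfe2l2 and AT01 replicate 1 at 9.16 FPKM for Keap1.

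Nfe2l2 encodes NRF2 itself. It measured 38.5, 28.4 and 33.3 FPKM in FCA, 34.6, 34.9 and 36.0 in AT01, 37.4, 32.9 and 36.0 in AT1, and 32.0, 36.1 and 53.0 in AT10. The groups overlapped, and of the 9 TCDCA libraries only AT10 replicate 3 lay above the highest FCA library. The difference of AT10 from FCA was 0.24 ± 0.21 (SE) on the log2 scale, with a 95% confidence interval of -0.28 to 0.77 and an adjusted p of 0.65 by limma. Without AT10 replicate 3 it was 0.036. Over all doses the difference was 0.14, with an interval of -0.15 to 0.43.

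Keap1, the NRF2 inhibitor and adaptor of the CUL3 ligase, measured 14.1, 15.9 and 13.8 FPKM in FCA. It measured 9.16, 13.1 and 11.8 FPKM in AT01, all 3 below the lowest FCA library. In AT1 the values were 14.1, 13.9 and 14.1 FPKM, and in AT10 they were 14.2, 12.8 and 13.0, both overlapping FCA. The group means were 14.6 ± 1.14 (SD, n = 3) in FCA, 11.4 ± 2.02 in AT01, 14.0 ± 0.142 in AT1 and 13.3 ± 0.747 FPKM in AT10. AT01 was lower than FCA by a fold of FPKM + 1 of 0.788, a log2 difference of -0.34 ± 0.14 (SE). The interval was -0.69 to 0.0065, with a limma p of 0.0531 and an adjusted p of 0.72. The exact permutation test gave p = 0.1, the smallest it can give. AT01 and AT1 did not overlap either, at a difference of 0.30 in favour of AT1 (interval -0.031 to 0.62, adjusted p = 1 by limma). The lowest value was that of AT01 replicate 1, the library farthest from the median library, and without it the difference of AT01 from FCA was -0.21 (adjusted p = 0.57, limma). The lowest dose thus had the lowest Keap1 RNA of the 4 groups, without passing the test.

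Only Keap1 and Gclm had groups without overlap in a comparison of single doses. They were 2 of 8 members in AT01 against FCA, where 14% of all records did not overlap. No member was free of overlap in AT10 or AT1 against FCA, where 19.9% of records were in each, or in TCDCA against FCA (2.86%). In AT1 against AT01 it was 1 of 8, Keap1, beside 8.6% of records. The ratio of Nfe2l2 to Keap1 FPKM ranged from 1.79 to 4.07 over the 12 libraries and averaged 2.32 ± 0.482 (SD, n = 3) in FCA, 3.16 ± 0.572 in AT01, 2.52 ± 0.14 in AT1 and 3.05 ± 0.929 in AT10. Each TCDCA group overlapped FCA in this ratio.

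Hmox1 encodes heme oxygenase 1, which breaks down heme to biliverdin, iron and carbon monoxide and is one of the most strongly inducible NRF2 targets. It measured 174, 119 and 178 FPKM in FCA, 170.0, 157 and 163 in AT01, 147.5, 181 and 179.9 in AT1, and 171, 104 and 186 in AT10. The 2 lowest values, FCA replicate 2 and AT10 replicate 2, came from different groups, and the groups overlapped in every comparison. TCDCA differed from FCA by 0.049 on the log2 scale, with an interval of -0.32 to 0.42 (adjusted p = 0.92, limma) and an exact permutation p of 0.886. Without FCA replicate 2 the difference turned to -0.14.

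Nqo1 encodes the quinone reductase NQO1, a classical marker of NRF2 activity. It measured 97.0, 185 and 182 FPKM in FCA, 79.9, 189.9 and 168 in AT01, 192, 197 and 171 in AT1, and 207, 181 and 163 in AT10. Replicate 1 of FCA and replicate 1 of AT01 were low, and the other 10 libraries lay between 163 and 207 FPKM. Nqo1 was the most variable tested member, with a residual SD of 0.44 on the log2 scale, against a median of 0.17 over all records. AT10 differed from FCA by 0.30 (interval -0.38 to 0.97) and AT1 by 0.33 (interval -0.33 to 0.99). Without FCA replicate 1 these fell to -0.0071 and 0.024. AT01 differed by -0.12, and by 0.26 without AT01 replicate 1, 0.037 without FCA replicate 2 and 0.029 without FCA replicate 3. TCDCA as a whole differed by 0.17, and by -0.14 without FCA replicate 1. The direction of Nqo1 thus changed with the removal of 1 library in each comparison with FCA but that of AT1.

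The first enzyme of glutathione synthesis, glutamate-cysteine ligase, has a catalytic subunit (Gclc) and a modifier subunit (Gclm). Gclc measured 9.43, 7.21 and 10.2 FPKM in FCA, 9.80, 8.57 and 9.55 in AT01, 9.15, 14.2 and 9.92 in AT1, and 7.90, 8.81 and 10.3 in AT10. AT1 replicate 2 was the highest of all, and the groups overlapped. The difference of AT1 from FCA was 0.27 (interval -0.22 to 0.76, adjusted p = 0.60, limma), and 0.094 without AT1 replicate 2.

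Gclm measured 3.53, 3.03 and 3.66 FPKM in FCA, 3.87, 4.28 and 3.78 in AT01, 4.15, 3.64 and 3.72 in AT1, and 3.6, 4.66 and 3.79 in AT10. All 3 AT01 libraries and 7 of the 9 TCDCA libraries lay above the highest FCA library. The mean was 3.41 ± 0.333 (SD, n = 3) in FCA, 3.98 ± 0.267 in AT01, 3.84 ± 0.274 in AT1 and 4.02 ± 0.565 FPKM in AT10. TCDCA was higher than FCA by 0.17 ± 0.074 (SE) on the log2 scale, with an interval of 0.0045 to 0.33, a limma p of 0.0448 and an adjusted p of 0.40. The exact permutation test over the 9 and 3 libraries gave p = 0.0318. By dose the differences were 0.18 in AT01, 0.14 in AT1 and 0.18 in AT10, with adjusted p of 0.76, 0.57 and 0.54 by limma. Leaving out each library in turn took the unadjusted p over 0.05 in 6 of 12 cases. The difference was smallest, 0.10, without FCA replicate 2 (adjusted p = 0.85, limma).

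A second record also carried the name Gclm. It held only an assembled transcript with no Ensembl identifier, and it was singled out after its values had been seen, while the sum of both records was an alternative set earlier. It measured 1.29, 1.77 and 1.35 FPKM in FCA, 1.2, 2.06 and 3.24 in AT01, 2.38, 1.71 and 2.35 in AT1, and 2.68, 2.92 and 2.51 in AT10. The 3 AT10 libraries lay above all FCA libraries, at a difference of 0.59 ± 0.11 (SE) on the log2 scale (fold of FPKM + 1 of 1.5, interval 0.32 to 0.86, adjusted p = 0.15 by limma, exact permutation p = 0.1). Of all records, 19.9% had no overlap between AT10 and FCA. AT1 differed by 0.35 and AT01 by 0.31, and both overlapped FCA.

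The sum of both Gclm records was 4.82, 4.80 and 5.01 FPKM in FCA, 5.07, 6.34 and 7.02 in AT01, 6.53, 5.35 and 6.07 in AT1, and 6.28, 7.58 and 6.30 in AT10. All 9 TCDCA libraries lay above every FCA library, and the exact permutation p was 0.00455, the smallest possible. Among all names summed in this way, 2.85% had no overlap between TCDCA and FCA, 19.9% between AT10 and FCA, 20.1% between AT1 and FCA and 14% between AT01 and FCA. On the log2 scale the summed difference was 0.30 for TCDCA, 0.39 for AT10, 0.25 for AT1 and 0.27 for AT01. The adjusted p by limma was 0.31, 0.21, 0.43 and 0.73, so that the sum was not called in any of them. Since the records may differ in length, the sum of their FPKM is not a level of the whole gene.

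**Figure D2:**
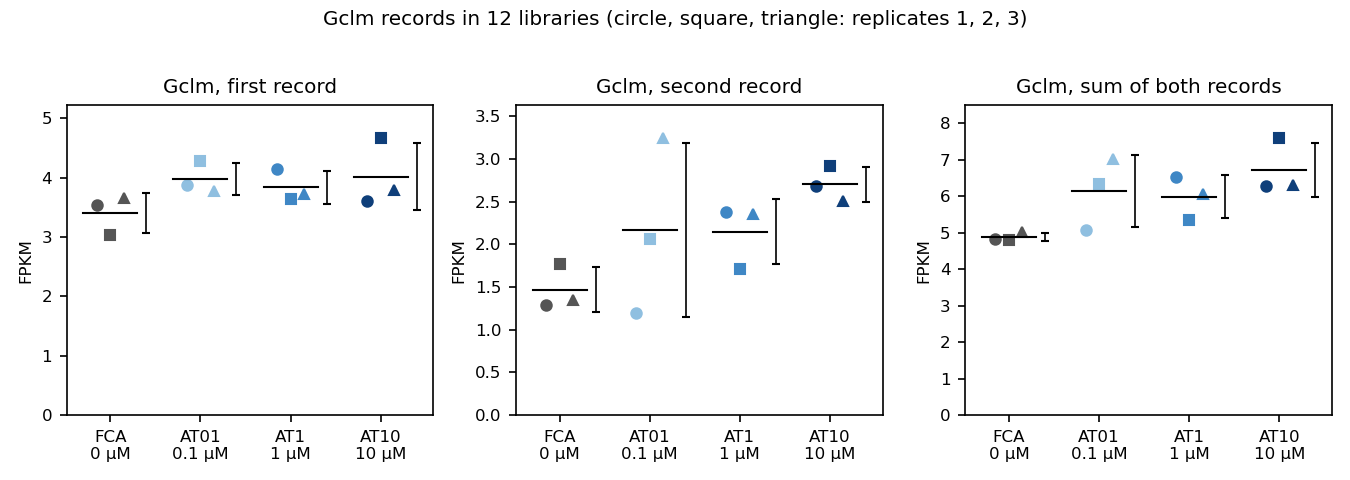
FPKM (linear vertical axes from 0) of both records named Gclm and of their sum in the 12 libraries, by group and TCDCA dose, with circles, squares and triangles for replicates 1, 2 and 3, a bar at the group mean and a whisker of 1 SD. In the sum, the FCA libraries lie between 4.80 and 5.01 FPKM and the TCDCA libraries between 5.07 and 7.58 FPKM.

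Txnrd1 encodes cytosolic thioredoxin reductase, which keeps thioredoxin reduced. It measured 37.2, 29.4 and 32.2 FPKM in FCA, 33.1, 31.3 and 29.7 in AT01, 32.1, 34.9 and 37.2 in AT1, and 33.2, 30.7 and 35.5 in AT10. All 9 TCDCA libraries lay within the range of FCA. Over TCDCA the difference was 0.010, with an interval of -0.16 to 0.18 (adjusted p = 0.97, limma), the narrowest interval of a member apart from Gclm.

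Srxn1 encodes sulfiredoxin, which restores overoxidized peroxiredoxins. It measured 7.82, 6.07 and 6.26 FPKM in FCA, 8.99, 4.98 and 5.85 in AT01, 4.54, 6.59 and 5.53 in AT1, and 6.27, 7.25 and 6.07 in AT10. AT01 held both the highest value of the 12 and one of the lowest, and the groups overlapped. The largest difference from FCA was that of AT1, at -0.24 (interval -0.61 to 0.13, adjusted p = 0.55, limma).

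Slc7a11 encodes the light chain of the cystine-glutamate exchanger, which supplies cysteine for glutathione. It measured 0.06, 0.10 and 0.08 FPKM in FCA, 0.06, 0.12 and 0.12 in AT01, 0.05, 0.07 and 0.13 in AT1, and 0.07, 0.10 and 0.24 in AT10. The levels were near the limit of the decimals given, and AT10 replicate 3 was the highest. The exact permutation p of TCDCA against FCA was 0.486. No fold is given at these levels. Slc3a2, its partner chain, which also serves other amino acid transporters, measured 84.2 to 108 FPKM and is named here after its values were seen.

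**Figure D3:**
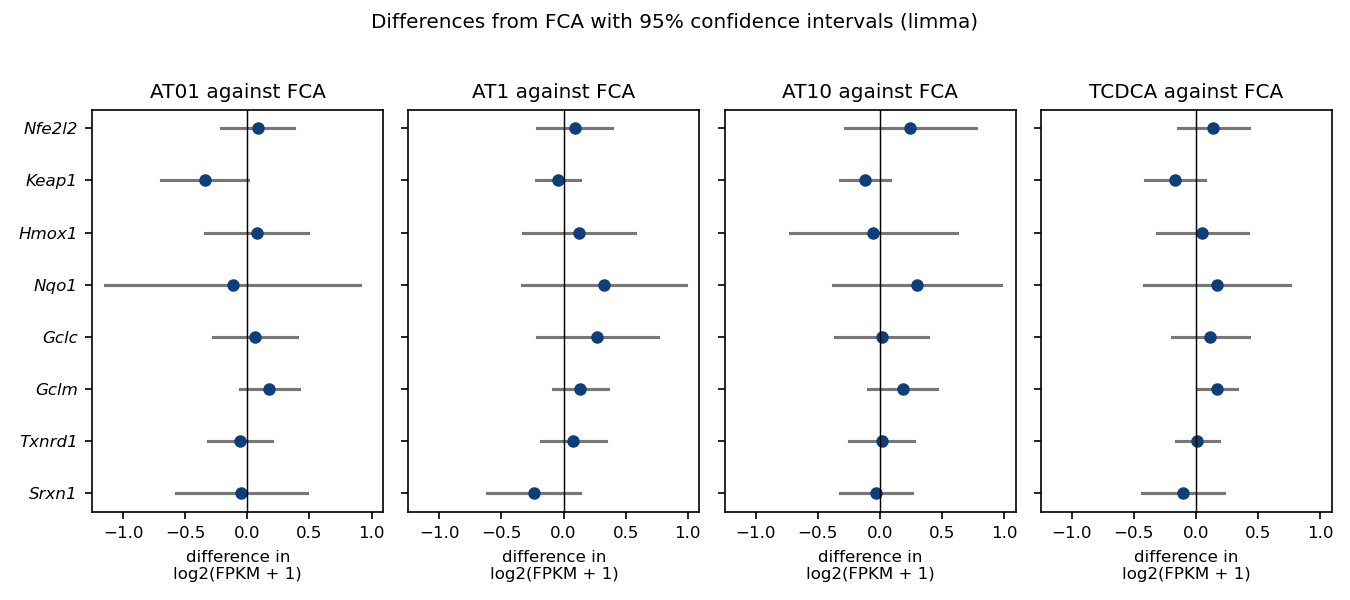
Difference in log2(FPKM + 1) from FCA for the 8 tested members at each dose and for the 9 TCDCA libraries together, with points for the limma estimates and lines for 95% confidence intervals. The only interval that excludes 0 is that of Gclm in TCDCA against FCA, from 0.0045 to 0.33.

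Taken by direction, 4 of 8 members were higher in AT01 than in FCA (median difference 0.0066), beside 50.3% of all records. In AT1 it was 6 of 8 (median 0.11) beside 53.2%, in AT10 5 of 8 (median 0.014) beside 48.2%, and in TCDCA 6 of 8 (median 0.082) beside 50.7%. The comparisons share the FCA libraries. The medians over all records were 0.0017, 0.016, -0.0085 and 0.0031 in the same order.

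The members did not move as 1 block over the 12 libraries. Among the 28 pairs of tested members, Pearson's r of log2(FPKM + 1) had a median of -0.016 and ranged from -0.745 for Nqo1 and Srxn1 to 0.669 for Hmox1 and Txnrd1. Only 3 pairs exceeded 0.5, namely Hmox1 and Txnrd1, Keap1 and Nqo1 (0.653), and Hmox1 and Gclc (0.55). These are descriptions over libraries that share groups and scaling. Keap1 and Nqo1 shared their lowest library, AT01 replicate 1.

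The records whose pattern over the 12 libraries was most like Hmox1 were Cep162 (r = 0.918), Eme1 (0.912) and Cbx1 (0.907). Cbx1 was at 5.33 FPKM in FCA replicate 2 and 5.43 in AT10 replicate 2, the libraries lowest in Hmox1, and at 7.05 to 14.5 FPKM elsewhere. Most like Nqo1 were RGD1559896 (r = 0.975), Swap70 (0.888) and Ost4 (0.885). RGD1559896 was at 14.4 FPKM in FCA replicate 1 and 13.2 in AT01 replicate 1, the libraries low in Nqo1, and at 39.0 to 65.6 FPKM in the other 10. No test was made of these likenesses.

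Beyond the members, 29 further NRF2 targets were listed, of which 26 were found and 25 tested. In TCDCA against FCA, 14 were higher and 11 lower, with a median of 0.044 on the log2 scale beside 0.0031 over all records, and 0 were called. At an unadjusted p under 0.05 by limma, 2 were higher and 2 lower, so that 4 of 25 passed beside 12% of all records, a share near that background. The higher ones were Trim16, a regulator of the NRF2 response (difference 0.38, adjusted p = 0.31), and Aldh3a1, an aldehyde dehydrogenase (0.33, adjusted p = 0.37). The lower ones were Gstm1, a glutathione transferase (-0.34, adjusted p = 0.29), and Tkt, transketolase of the pentose phosphate pathway (-0.11, adjusted p = 0.40).

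Gstm1 measured 6.67, 7.35 and 6.67 FPKM in FCA and between 4.05 and 6.18 FPKM, with a median of 5.23, in the 9 TCDCA libraries. The groups did not overlap, as in 2.86% of all records, and the direction of this glutathione gene was opposite to that of Gclm. The differences by dose were -0.23 in AT01, -0.36 in AT1 and -0.42 in AT10, with adjusted p of 0.72, 0.34 and 0.28 by limma. Trim16 was at 1.92, 0.76 and 1.57 FPKM in FCA and at 1.85 to 2.33 in TCDCA, and the low FCA replicate 2 stood apart.

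The most abundant of these targets were Fth1, the heavy chain of the iron store ferritin, Prdx1, a peroxiredoxin, and Txn1, thioredoxin. Fth1 ranged from 413 to 694 FPKM and differed between TCDCA and FCA by 0.075, Prdx1 ranged from 282 to 342 FPKM and differed by 0.071, and Txn1 ranged from 93.5 to 191 FPKM and differed by 0.18. Their adjusted p were 0.87, 0.64 and 0.79 by limma. Ftl1, the light chain of ferritin, had the widest difference of the list, 1.42 with an interval of -0.11 to 2.95, and was chosen after its values were seen. It lay at 4.80 to 7.53 FPKM in FCA replicates 1 and 2 and AT1 replicate 2 and at 27.7 to 64.6 FPKM in the other 9 libraries, with no value in between. By dose the difference from FCA was 2.13 in AT01 (interval 0.36 to 3.91), 0.52 in AT1 and 1.59 in AT10. The adjusted p were 0.72, 0.85 and 0.45 by limma. AT01 did not overlap FCA, as in 14% of all records, while AT1 and AT10 overlapped it. Ferritin genes have near-identical processed copies in the genome, between which reads could have been split, and the levels of Fth1 and Ftl1 may be affected. This was not tested.

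Among 20 regulators and partners of NRF2, 16 were tested, 7 higher and 9 lower in TCDCA, and 0 were called. The smallest p-values were those of Syvn1, a ubiquitin ligase that also targets NRF2 (-0.22, adjusted p = 0.39), Maff, a small MAF partner (-0.15, adjusted p = 0.46), and Ep300, a coactivator (0.23, adjusted p = 0.48). Cul3, the scaffold of the KEAP1 ligase, is named here after its values were seen. It measured 10.1, 12.6 and 11.8 FPKM in FCA and 16.7, 17.9 and 19.6 in AT10, without overlap, as in 19.9% of all records, at a difference of 0.61 ± 0.10 (SE) with an adjusted p of 0.13 by limma. In AT01 it measured 9.27, 10.6 and 16.9 FPKM and in AT1 13.6, 10.7 and 14.6 FPKM, both overlapping FCA. The differences were 0.047 for AT01, 0.15 for AT1 and 0.27 for TCDCA as a whole, with adjusted p of 0.97, 0.66 and 0.61 by limma.

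ATF4, the transcription factor of the amino acid response, also controls Slc7a11, and 14 genes of its response were listed. Of 13 tested, 7 were higher and 6 lower in TCDCA and 0 were called. Trib3, a stress-induced pseudokinase, had a difference of 0.65 (adjusted p = 0.31) and Ddit3, the transcription factor CHOP, one of 0.40 (adjusted p = 0.41), followed by the transporter Slc7a5 at -0.15 (adjusted p = 0.60), all by limma. Trib3 measured 1.19, 1.38 and 1.58 FPKM in FCA, 2.96, 3.04 and 2.48 in AT01, 1.14, 2.58 and 2.32 in AT1, and 3.03, 3.40 and 4.48 in AT10. AT10 and AT01 lay above FCA without overlap, at differences of 0.95 (adjusted p = 0.11) and 0.68 (adjusted p = 0.29), while AT1 overlapped it at a difference of 0.31 (adjusted p = 0.59, limma). Of all records, 19.9% had no overlap between AT10 and FCA and 14% none between AT01 and FCA.

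Of 8 tested genes of heme and iron handling, 3 were higher and 5 lower in TCDCA and 0 were called. The smallest p-values were those of Tfrc, the transferrin receptor (0.38, adjusted p = 0.38), Alas1, the first enzyme of heme synthesis (-0.099, adjusted p = 0.55), and Ireb2, an iron-responsive RNA-binding protein (0.18, adjusted p = 0.58). Tfrc measured 14.2, 14.8 and 16.3 FPKM in FCA, 14.4, 17.3 and 21.6 in AT01, 19.1, 16.9 and 21.1 in AT1, and 19.1, 24.4 and 28.1 in AT10. AT1 and AT10 did not overlap FCA, as in 19.9% of all records for each dose, while AT01 overlapped it. The differences were 0.20 in AT01, 0.31 in AT1 and 0.61 in AT10, with adjusted p of 0.82, 0.43 and 0.22 by limma.

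**Figure D4:**
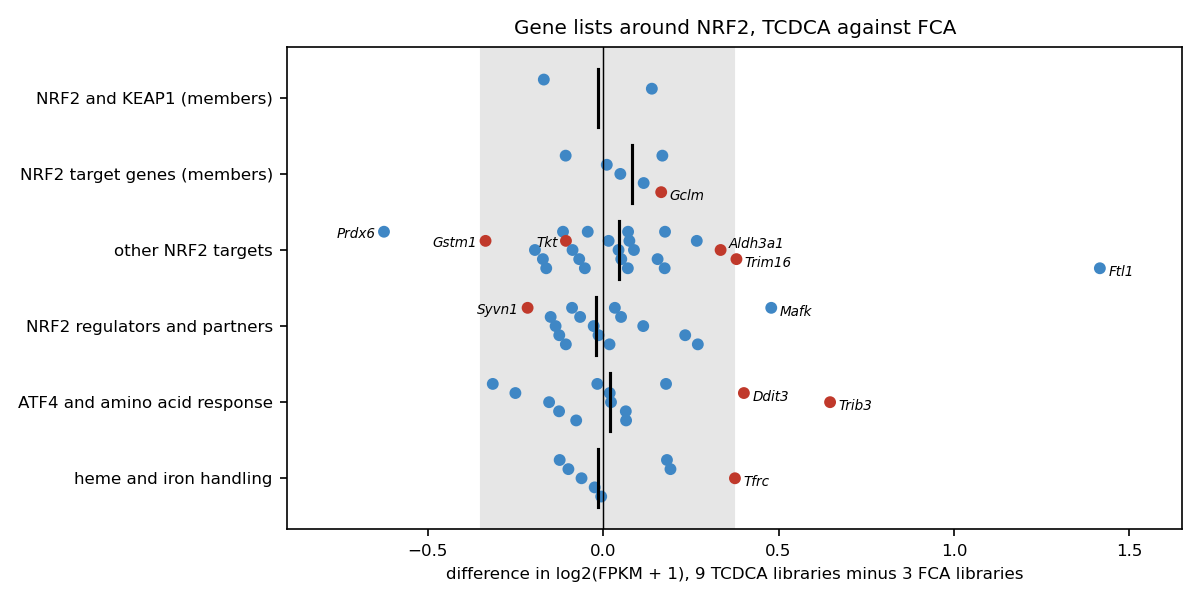
Difference in log2(FPKM + 1) between the 9 TCDCA and the 3 FCA libraries for the tested members and 4 gene lists around NRF2, with a point for each gene, a black bar at the list median, red for an unadjusted limma p under 0.05 and a grey band over the central 90% of all 11611 records (-0.35 to 0.37). No point shown was called after adjustment, and Ftl1 lies farthest to the right at 1.42.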

How the data were processed

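Poly(A) RNA of 12 FLS libraries was sequenced. The deposited values are FPKM per gene record. The paper names HISAT2 for alignment and StringTie and Ballgown for the expression levels. The labels name HISAT2, StringTie, cutadapt and edgeR, without Ballgown. The genome build is not given in the sources used here, and the labels and the paper's methods name different sequencers and amounts of input RNA.

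From these values, log2(FPKM + 1) of the 11611 records averaging 1 FPKM or more was fitted with limma 3.58.1 in R 4.3.3 (lmFit, eBayes with trend), 2 groups at a time, with the 9 TCDCA libraries against FCA and with an F test over the 4 groups, and adjusted by Benjamini-Hochberg over all records. Exact permutation tests, overlaps, correlations and the motif search were run in Python 3.11.15 (pandas 2.3.3, SciPy 1.17.1, NumPy 2.4.6), with Matplotlib 3.10.9 for figures. The fit was tested on simulated data. No 2 libraries shared more than 1.11% of their values.

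The members and gene lists were chosen with earlier results of these data known. Named were all members, the 3 genes of smallest p per list in TCDCA against FCA, the 3 most abundant further NRF2 targets and the 3 records most like Hmox1 and Nqo1, and any other gene is said to be named after its values were seen. For the further NRF2 targets, all 4 genes at an unadjusted limma p under 0.05 were named, in place of 3. Gene names were matched as written in the values, and Pgd, Cbr1, Akr1b8, Cth, Col1a2, Pdgfra, Ptprc, Cd163, C1qa and Pecam1 matched no record. Alternatives were another pseudocount (0.1), no filter, a filter at 10 FPKM, median-of-ratios scaling, sums by gene name, the replicate number as a block, a Ballgown-style F test, 1 fit over all libraries and each library left out. Tests of the second Gclm record were added after seeing the data.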

Additional observations from a re-analysis of the deposited data

Results flagged for a closer look

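In 10 series of values over the 9 TCDCA libraries (the 9 members and the second Gclm record), 6 held a library separated from the others by more than Dixon's 95% limit, where chance flags about 1 in 20 groups of normal values. The 9 libraries span 3 doses and the values are on the linear FPKM scale. The same limit was passed by 11.9% of the 11611 records tested. The number of members past it was not tested against that share. Nfe2l2 was at 53.04 FPKM in AT10 replicate 3, a gap of 0.744 of the whole range to the next library. Keap1 was at 9.16 FPKM in AT01 replicate 1 (0.527 of the range), and Nqo1 was at 79.86 FPKM in the same library (0.653). Hmox1 was at 104.3 FPKM in AT10 replicate 2 (0.526). Gclc was at 14.19 FPKM in AT1 replicate 2 (0.617). Slc7a11 was at 0.24 FPKM in AT10 replicate 3 (0.579), the library that also held the highest Nfe2l2. No member had all libraries of one dose above and all of another below FCA.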

How the results depend on the processing

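The count of members called at an adjusted p under 0.05 was 0 in each of 121 alternatives. The smallest adjusted p of a member in any of them was 0.21 by limma, for the summed Gclm in AT10. Few records of any kind were called in these settings, from 0 to 50 in the comparisons of 2 groups. A count of 0 among so few members was therefore near that background and is no sign of its own about the members. Of 476 alternative values for the 32 differences of members from FCA, 436 kept their direction and 40 reversed, the largest reversed size being 0.26. The Ballgown-style F test reversed Gclc (-0.061), Txnrd1 (-0.0049) and Srxn1 (0.0034) in AT10, Keap1 (0.035), Hmox1 (-0.11), Nqo1 (-0.020) and Gclc (-0.066) in AT1, and Hmox1 (-0.078), Gclc (-0.013) and Txnrd1 (-0.032) in TCDCA.

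With each library left out in turn, reversals occurred for the following differences, given by their ranges. In AT10 they were Hmox1 (-0.24 to 0.21), Nqo1 (-0.0071 to 0.45), Gclc (-0.12 to 0.11), Txnrd1 (-0.063 to 0.10) and Srxn1 (-0.099 to 0.069). In AT1 they were Nfe2l2 (-0.017 to 0.20), Keap1 (-0.083 to 0.012) and Hmox1 (-0.063 to 0.22). In AT01 they were Nfe2l2 (-0.026 to 0.19), Hmox1 (-0.11 to 0.18), Nqo1 (-0.42 to 0.26), Gclc (-0.071 to 0.15), Txnrd1 (-0.14 to 0.028) and Srxn1 (-0.26 to 0.11). In TCDCA they were Hmox1 (-0.14 to 0.15), Nqo1 (-0.14 to 0.33), Gclc (-0.017 to 0.21) and Txnrd1 (-0.066 to 0.099).

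The number of members at an unadjusted p under 0.05 went from 1 to 0 in TCDCA against FCA without a filter, with a mean of at least 10 FPKM (which leaves 5 members and not Gclm), with median-of-ratios scaling and in the Ballgown-style test. It rose from 0 to 1 with sums by gene name in AT10, AT1 and the 4 groups, without a filter in the 4 groups, and in 1 fit over all libraries in AT01 against FCA and AT1 against AT01. With a library left out it ranged from 0 to 1 in AT01 against FCA, AT10 against AT1, AT1 against AT01, TCDCA against FCA and the 4 groups. The cause was not tested for these changes, and the share of all records at this limit is not given for these settings.

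The replicate numbers recur in every group. Same-numbered libraries did not deviate together: over 18 such pairs the correlation of their deviations from group means ranged from -0.105 to 0.0942, with 0 over 0.1, and 4 of 12 libraries correlated best with their own number. With the replicate number as a block, the count of members called stayed at 0 in all comparisons. Of all 11611 records, this setting called 1 in AT10, 0 in AT1, 2 in AT01 and 1 in TCDCA against FCA. The count of members at an unadjusted p under 0.05 became 1 in AT01 against FCA, with Keap1, and 0 in TCDCA against FCA. The share of all records at that limit is not given for this setting.

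Without counts, the depth behind the low values of Slc7a11 and Gclm is unknown.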

Other observations

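The fibroblast markers were high in all libraries but not even. In TCDCA against FCA, 2 of the 8 were higher and 6 lower, with a median difference of -0.16 beside 0.0031 over all records. Lum (lumican) and Dcn (decorin), proteoglycans of the collagen matrix, were the 2 higher ones, with differences of 0.30 and 0.17. Thy1, a surface marker of fibroblasts, was among the 6 lower, with a difference of -0.22. Their adjusted p were 0.26, 0.32 and 0.36 by limma. None of the 8 was called.

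Some records on the lists lay at separate levels in some of the libraries and were chosen after their values were seen. Prdx6, a peroxiredoxin, was at 79.5 to 93.0 FPKM in FCA replicates 2 and 3, AT10 replicate 2 and AT1 replicate 3, and at 35.2 to 41.3 FPKM in the other 8. Its differences from FCA were -0.82 in AT01, -0.56 in AT1 and -0.50 in AT10, with adjusted p of 0.72, 0.64 and 0.68 by limma. Atf4 was at 33.7 FPKM in AT10 replicate 2 and at 123 to 169.9 FPKM elsewhere. Pdpn, which encodes the lining-layer protein podoplanin, was at 128 FPKM in FCA replicate 1 and AT01 replicate 3 and at 44.5 to 59.0 FPKM in the other 10. Cd14 was at 3.6 to 4.6 FPKM in FCA replicate 3, AT1 replicate 1 and AT01 replicate 1 and at 15.7 to 18.8 FPKM in the other 9.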
